A study of Mus musculus with 8 samples.

Results

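The 8 genes of T-cell quiescence and recirculation described here, Lef1, Tcf7, Klf2, S1pr1, Dapl1, Igfbp4, Satb1 and Bach2, were followed in CD4 T cells of the mouse meninges. They were chosen by symbol among the 55487 gene IDs of the count tables, and all 8 were listed in both meningeal replicates. The cells had been sorted as CD45+ CD3+ CD4+ from perfused mice, and each replicate had an RNA, a T-cell receptor (TCR) and a hashtag library. Replicate 1 came from Foxp3-GFP mice, in which a fluorescent protein reports the regulatory T-cell factor Foxp3, and replicate 2 from B6.WT mice. The treatment label reads N/A for both, and ages and numbers of mice are not given in the sources used here. Genotype and replicate cannot be told apart. Without a replicate block, p-values measure the spread between these 2 samples. A fit with a replicate block removes the shift that all classes of a replicate share. Its p-values measure how differently the class differences came out in the 2 samples, and not the spread between the samples themselves. The tables were made with Cell Ranger 4.0.0 for replicate 1 and 6.0.0 for replicate 2, so software version also moves with replicate. The kit is named as 3' in the sample labels and as 5' in the design text.

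Naive and memory T cells that recirculate between blood and lymph nodes keep a resting programme. The transcription factor Klf2 drives transcription of S1pr1, the receptor that lets T cells follow sphingosine-1-phosphate out of tissue. Tcf7 (encoding TCF1) and Lef1 are paired transcription factors of naive and stem-like T cells, Satb1 organises chromatin in thymocytes and resting T cells, and Bach2 restrains effector genes. Igfbp4, a secreted binder of insulin-like growth factors, and Dapl1 are transcripts enriched in naive T cells. Cells that settle in tissue commonly carry less Klf2 and S1pr1.

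Each replicate was one hashtag of a library that held several: hashtag 7 in replicate 1 and hashtag 10 in replicate 2, by the names in the labels. After filtering, 1461 cells of replicate 1 (median 2876 UMIs, unique molecular identifiers, per cell) and 3161 of replicate 2 (median 1600) were kept. The whole libraries shared 554 barcodes, of which 4 fell among the cells kept. Every cell was thinned at random to 1000 UMIs, which 1385 and 2798 cells reached. All levels below are counts-per-million values (CPM) of UMIs in the thinned sums, with replicate 1 before replicate 2, and intervals cover counting error only.

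The cells were divided into 4 classes without using the 8 genes, by TCR sequence and by counts before thinning. TRAV11-TRAJ18 cells carried the invariant TCR alpha chain of natural killer T cells (105 and 389 cells). Foxp3-positive cells had at least 1 Foxp3 UMI (97 and 390), Th1-type cells at least 2 UMIs of Ccl5 and Ifng together (547 and 737), and the remaining cells met no rule (712 and 1645). The order of the rules put cells meeting both the Foxp3 and the Th1 rule, 36 and 92, with the Foxp3-positive cells. Of the TRAV11-TRAJ18 cells, 73 of 105 and 204 of 389 also met the Th1 rule, and 2 and 21 held Foxp3. An alpha chain was read in 78.4% and 57.8% of cells, so other classes can hold TRAV11-TRAJ18 cells whose chain was not read. The shares differed between replicates: Th1-type cells made up 37.4% of replicate 1 (exact binomial 95% interval 35.0 to 40.0%) and 23.3% of replicate 2 (21.9 to 24.8%).

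The Treg and invariant natural killer T-cell lists were highest in the classes of those names, whereas the Th1 list was high in Th1-type and TRAV11-TRAJ18 cells. The 5 Treg markers (Il2ra, Ikzf2, Ctla4, Tnfrsf18, Il10) summed to 2239 and 1747 CPM in Foxp3-positive cells and to between 431 and 733 CPM elsewhere. The 5 Th1 markers (Tbx21, Cxcr3, Il12rb2, Nkg7, Il18r1) summed to 2240 and 2127 CPM in Th1-type and 2505 and 2536 CPM in TRAV11-TRAJ18 cells. In the other 2 classes they summed to 753 to 945 CPM. Most of the sum in Th1-type cells was Nkg7 (1497 and 1440 CPM). Il18r1 did not follow the list: it was 75.8 and 80.2 CPM in Th1-type and 84.7 and 71.1 CPM in remaining cells. In TRAV11-TRAJ18 cells Il18r1 was lowest, at 38.8 and 24.0 CPM. The 5 markers of invariant natural killer T cells summed highest in TRAV11-TRAJ18 cells, at 1738 and 1667 CPM. They reached 1030 and 1083 CPM in Th1-type cells, mostly Il2rb (530.5 and 701.2 CPM) and Xcl1 (452.9 and 312.0 CPM). Zbtb16 was 3.7 and 20.4 CPM in Th1-type against 58.3 and 56.0 CPM in TRAV11-TRAJ18 cells. Klrb1c was 18.5 and 19.0 against 97.1 and 112.0 CPM. The 2 CD8 markers, which no filter used, summed to at most 32.6 CPM and the 3 NK-cell markers, also unused, to at most 22.2 CPM in any class. Cells with 3 or more UMIs of myeloid, B-cell, endothelial and fibroblast markers together had been removed. Low sums of those lists were therefore built in and are no evidence of purity. The 4 myeloid markers summed to at most 16.0 CPM and the 3 B-cell markers to at most 3.08 CPM in any class. Endothelial markers summed to at most 52.4 CPM, with Cldn5 at 0 in every class, and fibroblast markers (Col1a1, Col1a2, Dcn) to 19.4 to 87.0 CPM in replicate 1 and 0 to 5.83 CPM in replicate 2. The 9 immediate early and heat shock genes, which can mark tissue dissociation but were not tested for it, summed higher in replicate 2 in every class. In remaining cells the sums were 2361 and 3474 CPM. The genes did not move together. In remaining cells Junb (943 and 1771 CPM), Dusp1, Fos and Ier2 were higher in replicate 2. Fosb, Jun, Egr1, Hspa1a (37.0 and 5.0 CPM) and Hspa1b (43.1 and 1.4 CPM) were higher in replicate 1. Hspa1a and Hspa1b were higher in replicate 1 in every class, in part on very few UMIs. In Foxp3-positive cells they were 21.7 and 8.7 and 10.9 and 5.8 CPM, where 3 UMIs give 32.6 and 8.72 CPM. In TRAV11-TRAJ18 cells Hspa1a was 19.4 and 5.3 CPM, where 3 UMIs give 29.1 and 8 CPM.

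The junctions that define the TRAV11-TRAJ18 class are shown because the class rests on sequence alone. The 4 most frequent CDR3 nucleotide sequences from the TCR tables were the same in both replicates, each 45 bases long, and the capital marks the base at which they differ.
Invariant junction 1: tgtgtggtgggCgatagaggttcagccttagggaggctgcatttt
Invariant junction 2: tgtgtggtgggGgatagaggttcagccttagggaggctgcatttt
Invariant junction 3: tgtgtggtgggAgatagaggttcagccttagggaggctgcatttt
Invariant junction 4: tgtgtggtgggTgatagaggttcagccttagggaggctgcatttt
In the order printed they occurred in 36, 28, 20 and 10 of 105 cells in replicate 1 and in 145, 114, 66 and 45 of 389 cells in replicate 2. Together with rarer ones there were 10 and 18 distinct junctions.

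RefSeq promoter sequences (GRCm38.p6) were at hand for 7 of the 8 genes, with 15 windows in all. The 250 bases upstream of the start are printed for Lef1, Klf2, Dapl1 and Satb1. The first 3 were lower in TRAV11-TRAJ18 than in remaining cells in both replicates, Lef1 without a call in either fit. Satb1 was higher. Tcf7 and Igfbp4, which have windows too, were also lower there in both replicates and are not printed. Lef1 and Satb1 have more than 1 window, of which 1 each is printed, and some of the 15 windows overlap. Capitals mark matches on either strand to TGTTTAC (FOXO type), CTTTGAA (TCF/LEF type) or CACCC (KLF type).
Lef1 chr3:131110047-131110296 (plus strand): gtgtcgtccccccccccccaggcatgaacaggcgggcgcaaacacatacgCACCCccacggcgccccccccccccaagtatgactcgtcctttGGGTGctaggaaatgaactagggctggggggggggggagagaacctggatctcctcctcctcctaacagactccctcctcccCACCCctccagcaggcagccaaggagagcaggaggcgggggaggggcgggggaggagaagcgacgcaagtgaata
Klf2 chr8:72318812-72319061 (plus strand): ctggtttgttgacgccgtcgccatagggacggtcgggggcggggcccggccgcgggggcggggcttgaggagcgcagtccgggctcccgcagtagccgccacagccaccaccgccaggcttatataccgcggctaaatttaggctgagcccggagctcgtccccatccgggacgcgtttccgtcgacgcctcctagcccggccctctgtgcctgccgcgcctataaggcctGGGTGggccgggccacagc
Dapl1 chr2:59484403-59484652 (plus strand): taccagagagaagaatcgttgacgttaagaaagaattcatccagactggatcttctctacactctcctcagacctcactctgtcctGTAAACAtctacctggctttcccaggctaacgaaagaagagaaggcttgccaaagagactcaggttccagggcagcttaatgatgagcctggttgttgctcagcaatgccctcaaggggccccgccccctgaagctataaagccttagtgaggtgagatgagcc
Satb1 chr17:51833291-51833540 (minus strand): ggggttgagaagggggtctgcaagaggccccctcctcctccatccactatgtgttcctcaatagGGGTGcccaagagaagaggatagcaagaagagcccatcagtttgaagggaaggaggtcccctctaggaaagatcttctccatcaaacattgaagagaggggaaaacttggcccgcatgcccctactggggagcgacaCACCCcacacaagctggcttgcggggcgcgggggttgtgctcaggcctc
The FOXO-type letters were found in 1 of the 15 windows, that of Dapl1, and in 3.17% of all 32851 promoter windows of the same length. The KLF-type letters were found in 12 of the 15 windows, of 5 genes, and in 52.0% of all promoters. The TCF/LEF-type letters were in none of the 15 windows and in 4.46% of all promoters. These matches describe letters only.

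**Figure D1:**
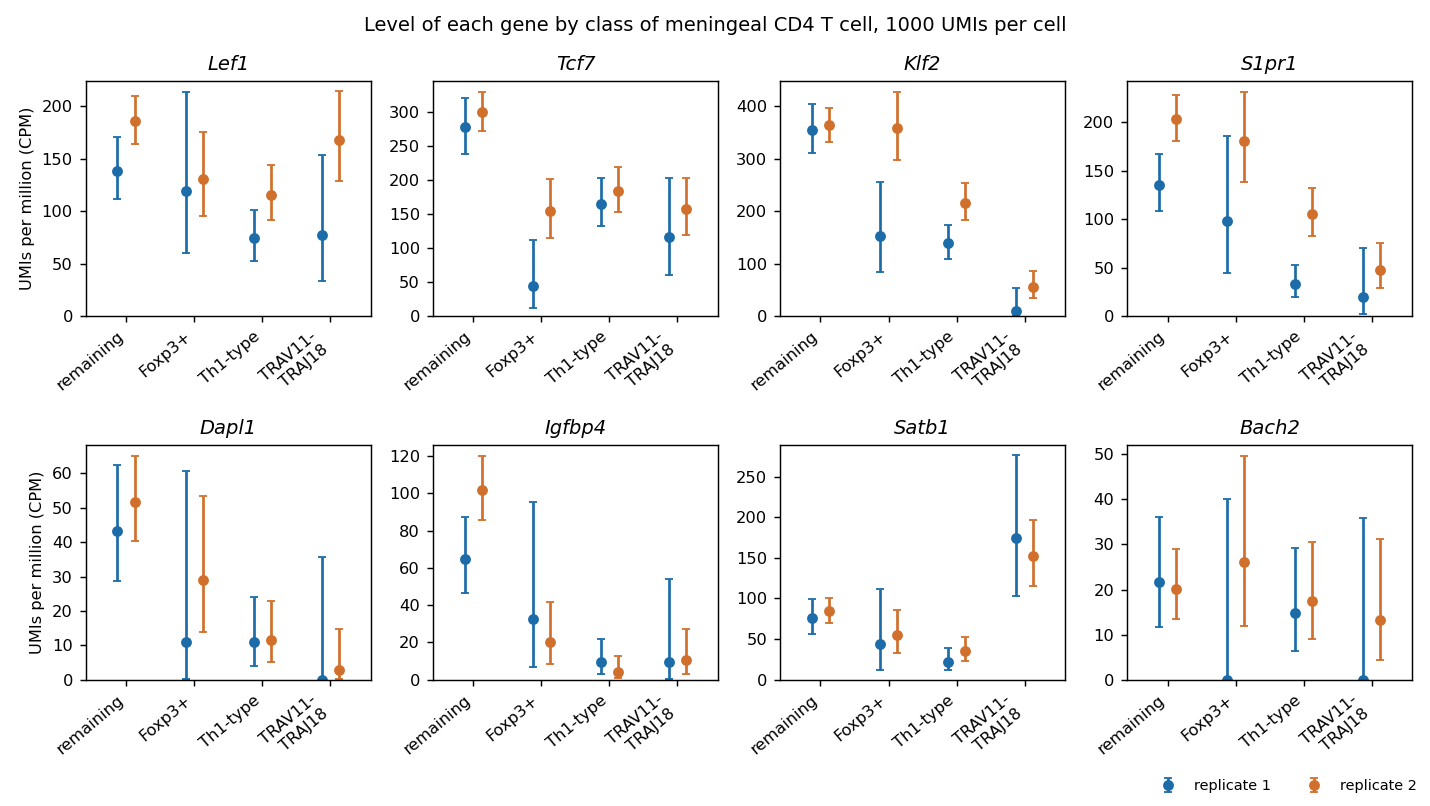
Levels of the 8 genes in CPM (linear axes from 0) in the 4 classes of meningeal CD4 T cells, with 1 point per replicate and bars for exact Poisson 95% intervals of the count. Remaining cells were highest for 6 of the genes in both replicates, TRAV11-TRAJ18 cells were highest for Satb1 (175 and 152 CPM), and Bach2 was at most 26.2 CPM.

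Klf2 (ENSMUSG00000055148.7, chr8:72319062-72321654 in GRCm38.p6) stood at 354 and 363 CPM in remaining cells, 152 and 358 in Foxp3-positive cells, 139 and 216 in Th1-type cells and 9.71 and 56.0 in TRAV11-TRAJ18 cells. The TRAV11-TRAJ18 sums were below every other sum, the Th1-type sums were below both remaining sums, and Foxp3-positive cells were low in replicate 1 alone. In TRAV11-TRAJ18 cells of replicate 1 the level was 1 UMI of 103000, and the ratio of remaining to TRAV11-TRAJ18 cells was 36.5 (95% counting interval 6.49 to 1448) there and 6.49 (4.20 to 10.6) in replicate 2. Across both replicates Klf2 fell in TRAV11-TRAJ18 cells by 3.09 on the log2 scale (SE 0.46, n = 2 per class; edgeR quasi-likelihood test, Benjamini-Hochberg adjusted p = 0.0141).

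Because all 4 classes of a replicate were read from 1 library and the same animals, a second fit with a replicate block is given wherever it altered a call. With it, Klf2 also fell in Th1-type against remaining cells, by 1.01 (edgeR, adjusted p = 3.95e-07, against 0.740 without the block). The difference between Foxp3-positive and remaining cells was -0.43 (SE 0.35) and passed neither fit (edgeR, adjusted p = 0.476 with the block). Klf2 was 2.07 lower in TRAV11-TRAJ18 than in Th1-type cells with the block (edgeR, adjusted p = 1.22e-06) and was not called without it (0.266).

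S1pr1 (ENSMUSG00000045092.8, chr3:115710433-115715055), the egress receptor, was 136 and 203 CPM in remaining cells, 97.8 and 180 in Foxp3-positive cells, 33.3 and 105 in Th1-type cells and 19.4 and 48.0 in TRAV11-TRAJ18 cells. Each class was higher in replicate 2, and within each replicate the order of the classes was the same as for Klf2. TRAV11-TRAJ18 and Th1-type sums were below both remaining sums. Foxp3-positive sums overlapped those of remaining cells and those of Th1-type cells. S1pr1 fell in TRAV11-TRAJ18 cells by 2.24 (SE 0.29) and in Th1-type cells by 1.26 (SE 0.18) with the replicate block (edgeR, adjusted p = 7.04e-09 and 3.95e-07), and neither was called without it (0.132 and 0.718). Foxp3-positive cells differed from remaining cells by -0.23 (SE 0.43), which was called in neither fit, and the sign turned to 0.16 when cells meeting both the Foxp3 and the Th1 rule were left out. S1pr1 was higher in Foxp3-positive than in Th1-type cells by 0.96 with the block (edgeR, adjusted p = 0.0138; 0.710 without). That call was kept in 6 of 10 alternative settings of the block fit.

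Tcf7 (ENSMUSG00000000782.16, chr11:52246527-52283383) was 277 and 299 CPM in remaining cells, 165 and 184 in Th1-type cells, 117 and 157 in TRAV11-TRAJ18 cells and 43.5 and 154 in Foxp3-positive cells. Remaining cells lay above every other sum, and Foxp3-positive cells were lowest in both replicates, in replicate 2 by less than the counting error (154 against 157 CPM in TRAV11-TRAJ18 cells). The Foxp3-positive sum of replicate 1 rested on 4 UMIs. With the block Tcf7 fell against remaining cells by 1.26 (SE 0.21) in Foxp3-positive cells, by 0.74 (SE 0.14) in Th1-type cells and by 1.05 (SE 0.20) in TRAV11-TRAJ18 cells (edgeR, adjusted p = 2.78e-05, 2.10e-04 and 6.24e-05). None of the 3 was called without the block (0.788, 0.99995 and 0.261).

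Lef1 (ENSMUSG00000027985.14, chr3:131110297-131224357), the partner of Tcf7, was 139 and 186 CPM in remaining cells, 120 and 131 in Foxp3-positive cells, 73.9 and 115 in Th1-type cells and 77.7 and 168 in TRAV11-TRAJ18 cells. The sums of remaining and TRAV11-TRAJ18 cells overlapped, and those of Th1-type cells were below both remaining sums. Lef1 fell by 0.78 (SE 0.17) in Th1-type cells with the block (edgeR, adjusted p = 0.00102; 0.905 without). In TRAV11-TRAJ18 cells the difference was -0.30 (SE 0.30) and in Foxp3-positive cells -0.43 (SE 0.32), called in neither fit.

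Satb1 (ENSMUSG00000023927.15, chr17:51736187-51833290) had another order. TRAV11-TRAJ18 cells were highest at 175 and 152 CPM, followed by remaining cells at 75.5 and 84.0, Foxp3-positive cells at 43.5 and 55.2, and Th1-type cells at 22.2 and 35.0. The 4 classes did not overlap in any pair of neighbours in this order, though n is 2 per class. Satb1 rose in TRAV11-TRAJ18 against Th1-type cells by 2.43 (SE 0.30; edgeR, adjusted p = 0.0356; 1.40e-08 with the block). Against remaining cells it rose by 0.90 (SE 0.22) with the block (edgeR, adjusted p = 0.00413; 0.183 without). In Th1-type cells it fell by 1.46 (SE 0.25) with the block (edgeR, adjusted p = 2.51e-05; 0.180 without).

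Igfbp4 (ENSMUSG00000017493.12, chr11:99040005-99052655) was 64.7 and 102 CPM in remaining cells, 32.6 and 20.3 in Foxp3-positive cells, 9.24 and 4.37 in Th1-type cells and 9.71 and 10.7 in TRAV11-TRAJ18 cells. Both remaining sums were above all others, and the Th1-type and TRAV11-TRAJ18 sums rested on 1 to 5 UMIs each. The ratio of remaining to TRAV11-TRAJ18 cells was 6.67 (95% counting interval 1.13 to 269) in replicate 1 and 9.56 (3.65 to 35.6) in replicate 2. The 3 Igfbp4 UMIs of Foxp3-positive cells in replicate 1 came from 1 cell. The gene entered the fit chiefly through remaining cells, with 42 and 142 UMIs against 1 to 7 in every other sum, so a difference from them was built in and the p-values describe it without supporting it. The log2 difference was -3.65 (SE 0.44; edgeR, adjusted p = 0.0245) in Th1-type and -3.04 (SE 0.52; adjusted p = 0.0339) in TRAV11-TRAJ18 cells. In Foxp3-positive cells it was -2.03 (SE 0.40) with the block (edgeR, adjusted p = 5.22e-04; 0.710 without), and -1.03 at 500 UMIs per cell (adjusted p = 0.472). Removed cells of the same sort with 3 or more UMIs of other-lineage markers held 843 and 1244 CPM of Igfbp4. Most of them also had a T-cell gene or chain. The fibroblast markers summed to 35.4 and 2.15 CPM in remaining cells and to 33.3 and 5.83 CPM in Th1-type cells, and their part in the difference was not tested.

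Dapl1 (ENSMUSG00000026989.5, chr2:59484653-59505020) was 43.1 and 51.7 CPM in remaining cells, 10.9 and 29.1 in Foxp3-positive cells, 11.1 and 11.7 in Th1-type cells and 0 and 2.67 in TRAV11-TRAJ18 cells. Remaining cells were highest in both replicates with no overlap. Of 103000 UMIs in TRAV11-TRAJ18 cells of replicate 1 none was Dapl1, so that remaining cells were at least 1.48-fold higher against a floor of 3 counts. In replicate 2 the count was 1 of 375000, and the ratio was 19.4 (95% counting interval 3.37 to 776). Dapl1 entered the fit chiefly through remaining cells, with 28 and 72 UMIs against 0 to 10 in every other sum, so a difference from them was built in and the following p-values describe it without supporting it. In TRAV11-TRAJ18 cells the fitted log2 difference was -4.43, which depends on the prior count (edgeR, adjusted p = 0.0313). In Th1-type cells it was -2.06 (SE 0.37) with the block (edgeR, adjusted p = 5.33e-05; 0.185 without).

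Bach2 (ENSMUSG00000040270.16, chr4:32238413-32586109) was near the limit of detection. It was 21.6 and 20.1 CPM in remaining cells, 14.8 and 17.5 in Th1-type cells, 0 and 26.2 in Foxp3-positive cells and 0 and 13.3 in TRAV11-TRAJ18 cells. It did not pass the filter on low counts in the class fit, and differences between classes were not detectable at this depth. In unthinned sums, where it was tested, it was called in no comparison of the classes, with or without the block (edgeR, lowest adjusted p 0.154).

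**Figure D2:**
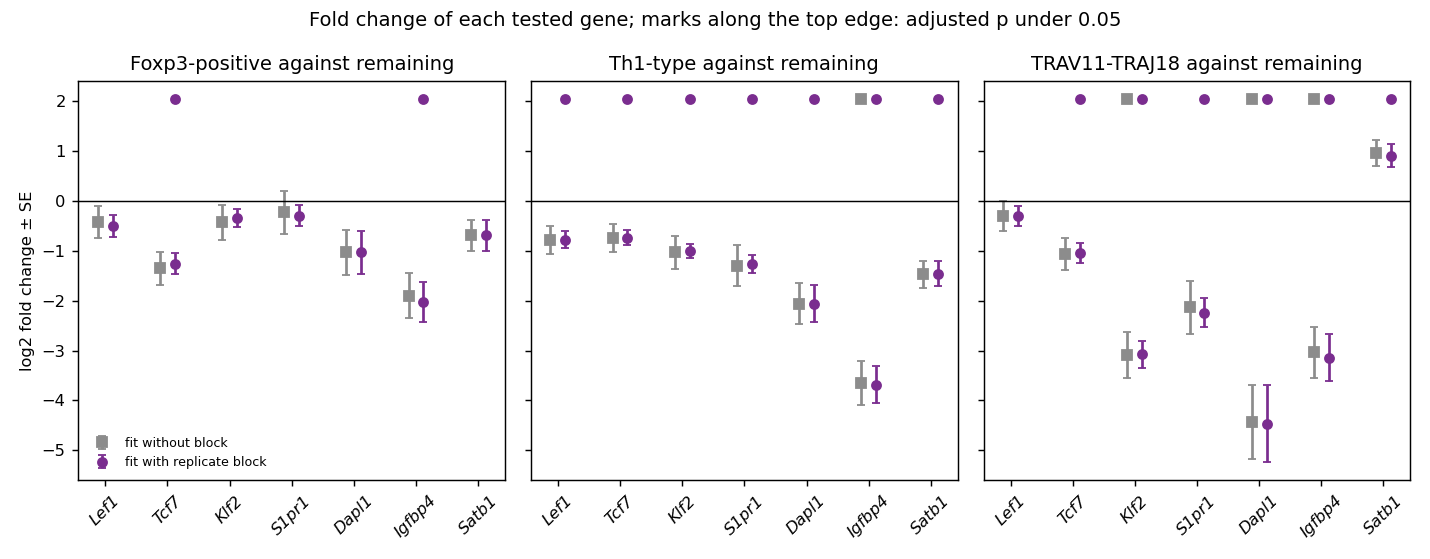
Log2 fold change (points, with SE bars; linear axis) of the 7 tested genes in each class against remaining cells, from edgeR fits without (grey squares) and with (purple circles) the replicate block; marks along the top edge show an adjusted p under 0.05. The fold changes of both fits lie close together while the calls differ, and Satb1 in TRAV11-TRAJ18 cells is the one positive value.

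Counted over the 7 genes that passed the filter, 3 were called lower in TRAV11-TRAJ18 against remaining cells without the block and 0 higher, beside 0.335% of all 6561 genes called lower, 0.29% higher and 0.625% in either direction. With the block 5 were lower and 1 higher, beside 3.08% and 2.58% (5.65% in all). In Th1-type cells 1 was called lower and 0 higher, beside 0.0305% lower, 0.0305% higher and 0.061% in all, and with the block 7 were lower, beside 1.95% lower, 2% higher and 3.95% in all. In Foxp3-positive cells edgeR called 0 of the 7, 3 had an unadjusted p under 0.05 and DESeq2 called 0, beside 0.0152% of all genes called, all of it higher. With the block 2 were lower there, beside 0.93% lower, 0.945% higher and 1.87% in all.

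Foxp3-positive against Th1-type cells gave 0 calls among the 7 (3 with an unadjusted p under 0.05, 0 by DESeq2), beside 0.168% higher, 0.0457% lower and 0.213% in all. With the block 2 were higher, S1pr1 and Klf2 (0.66, edgeR adjusted p = 0.0395, kept in 3 of 10 alternative settings), beside 1.84% higher, 1.33% lower and 3.17% in all. TRAV11-TRAJ18 against Th1-type cells gave 1 higher, beside 0.0152% higher, 0.0305% lower and 0.0457% in all, and with the block 1 higher and 1 lower, beside 0.533%, 0.838% and 1.37%. Of the calls made without the block, that of Klf2 in TRAV11-TRAJ18 cells was kept in every alternative run. That of Dapl1 in TRAV11-TRAJ18 cells was lost with DESeq2 (adjusted p = 0.191) and, with edgeR, with another draw of the thinning (0.0732), with classes set on thinned counts (0.0544) and without thinning (0.0978). That of Igfbp4 there was lost with DESeq2 (0.109) and, with edgeR, at 500 UMIs per cell (0.270) and with another draw (0.05004). That of Igfbp4 in Th1-type cells was lost with edgeR with the class set from 1 UMI (0.167), at 500 UMIs (0.0568) and without thinning (0.0661), and that of Satb1 against Th1-type cells in 7 alternatives (edgeR, up to 0.110). With the block these 4 were kept in every alternative that tested them.

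Dapl1 and Igfbp4, which passed the filter chiefly through remaining cells, had to differ from them, so these counts and medians are a description and not support. The median log2 difference of the 7 genes was -0.69 in Foxp3-positive, -1.30 in Th1-type and -2.13 in TRAV11-TRAJ18 cells, beside -0.02, -0.01 and -0.02 over all genes tested.

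Other genes of the resting programme were taken from a list of 23 companions, all of which were tested. In Th1-type against remaining cells 1 was called lower and with the block 10, beside 0.0305% and 1.95% of all genes lower. In either fit 0 were higher. In TRAV11-TRAJ18 cells 3 were called lower and with the block 9, again with 0 higher, beside 0.335% and 3.08% of all genes lower. In Foxp3-positive cells 0 were called and with the block 2 were lower, beside 0.0152% of all genes called and 0.93% lower. The median difference of the 23 was -0.63, -0.43 and -0.12 in Th1-type, TRAV11-TRAJ18 and Foxp3-positive cells. Over all genes tested it was -0.01, -0.02 and -0.02.

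Ccr7, the chemokine receptor for entry into lymph nodes, was 162 and 150 CPM in remaining cells, 54.3 and 90.1 in Foxp3-positive cells, 27.7 and 32.1 in Th1-type cells and 0 and 10.7 in TRAV11-TRAJ18 cells. It fell in Th1-type cells by 2.38 (edgeR, adjusted p = 0.0245), and its fall in TRAV11-TRAJ18 cells was called as well (adjusted p = 0.00470). Il7r, the interleukin-7 receptor that sustains resting T cells, was 652 and 534 CPM in remaining and 97.1 and 112 CPM in TRAV11-TRAJ18 cells and fell by 2.52 (edgeR, adjusted p = 0.00449). Id3, an inhibitor of E proteins, was 83.2 and 81.1 CPM in remaining cells and 0 and 16.0 CPM in TRAV11-TRAJ18 cells (edgeR, adjusted p = 0.0361). With the block, Il7r, Il6ra and Ly6c1 fell in Th1-type cells (by 0.86, 1.62 and 1.93), Ripor2 and Il6ra in TRAV11-TRAJ18 cells (by 2.08 and 3.08), and Ccr7 and Il7r in Foxp3-positive cells (by 0.96 and 0.48; edgeR, adjusted p = 0.0227 and 0.0499).

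The 18 genes of tissue retention and activation, 17 of them tested, moved in both directions. Cxcr6, a receptor of tissue T cells, rose from 322 and 454 CPM in remaining cells to 1311 and 1053 CPM in TRAV11-TRAJ18 cells, by 1.56 (edgeR, adjusted p = 0.0192), the 1 gene of this list called without the block against remaining cells. With the block 6 rose and 2 fell in Th1-type cells, among them Cxcr6, Id2, Rgs1 and Runx3, which rose by 1.14, 0.98, 0.58 and 0.87. In TRAV11-TRAJ18 cells 5 rose and 1 fell, with Id2 up by 1.38, Zfp683, encoding the residency factor Hobit, by 1.97 and Itga1 by 1.49. In Foxp3-positive cells 3 rose and 2 fell: Tnfrsf9 and Icos rose by 2.31 and 1.04, and Cxcr6 and Id2 fell by 1.32 and 0.57. Of the immediate early and heat shock genes 9 were tested and 0 were called without the block against remaining cells. With the block 0 rose and 2 fell in Th1-type cells, Jun and Junb by 0.69 and 0.33. In TRAV11-TRAJ18 cells 4 fell, Fos, Jun, Ier2 and Fosb by 0.82, 0.80, 0.57 and 1.40, and 1 rose, Dusp1, which is outside the naming rule and was named after its values were seen. In Foxp3-positive cells 1 rose, Dusp1 by 0.60, and 0 fell. The part of the immediate early and heat shock genes in the differences of the 8 genes was not tested. For both lists, with the block 2% of all genes rose and 1.95% fell in Th1-type cells. In TRAV11-TRAJ18 cells 2.58% rose and 3.08% fell, and in Foxp3-positive cells 0.945% and 0.93%. Without the block 0.061%, 0.625% and 0.0152% of all genes were called in these 3 classes.

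Clonal expansion, read from the TCR beta chain, gave a split that uses no gene count. A clone was expanded when at least 2 cells of the sample shared the V and J segments and the CDR3 nucleotides. Outside the TRAV11-TRAJ18 class 259 and 272 cells with 1 usable beta chain were expanded and 921 and 1490 were single. Without the block 0 of the 8 genes, all tested here, were called (0% of all 6521 genes); 3 had an unadjusted p under 0.05 and DESeq2 called 0. With the block 3 were lower in expanded clones, beside 0.383% of all genes lower, 0.521% higher and 0.905% in all.

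Klf2 was 129 and 137 CPM in expanded and 289 and 353 CPM in single clones, and fell by 1.30 (SE 0.18) with the block (edgeR, adjusted p = 1.70e-10; 0.664 without). Igfbp4 was 3.91 and 8.30 CPM in expanded clones, 1 and 2 UMIs, and 48.8 and 60.9 CPM in single clones. Its ratio was 12.5 (95% counting interval 2.13 to 505) in replicate 1 and 7.33 (1.97 to 61.6) in replicate 2 (edgeR with the block, adjusted p = 4.78e-05; 0.664 without), and the call was lost at 500 UMIs per cell (0.0782). Here too the gene entered the fit through the single clones, so that p is a description. Lef1 was 58.6 and 99.6 CPM in expanded and 122 and 155 CPM in single clones (edgeR with the block, adjusted p = 0.0403; 0.9997 without), a call that 2 of 6 alternative settings of the block fit kept. Tcf7, at 156 and 303 CPM in expanded and 235 and 248.6 CPM in single clones, overlapped and was called in neither fit.

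Class makeup moved with clone size: Th1-type cells were 71.0% and 44.1% of expanded and 34.3% and 22.6% of single-clone cells. Within Th1-type cells alone 4 of the 8 genes could be tested and 0 were called, with or without the block (0% of 3833 genes, and 0.0261% with the block; 0 of the 4 had an unadjusted p under 0.05 and DESeq2 called 0). Klf2 was 130 and 111 CPM in expanded and 149 and 220 CPM in single Th1-type clones, a difference of -0.60 (SE 0.32).

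The number of the 8 genes detected per cell at 1000 UMIs averaged 0.867 and 0.994 in remaining cells, 0.391 and 0.767 in Foxp3-positive cells, 0.396 and 0.574 in Th1-type cells and 0.369 and 0.512 in TRAV11-TRAJ18 cells. Of the cells with several of them, 36 and 96 remaining cells had 3, and 17 and 30 had 4 or more. The 83 and 45 removed cells of the same sort that held markers of other lineages were counted in the same way. Their median was 7062 and 2379 UMIs before thinning, against 2635 and 1488 in remaining cells. Before the limit of 1000 UMIs there were 85 and 49 such cells, of which 68 and 34 also had a T-cell gene or chain. They are therefore no pure sample of other lineages. Lef1 was seen in 12.02% and 15.6% of remaining cells and in 3.61% and 4.44% of the removed cells. Tcf7 was seen in 23.1% and 23.7% of remaining cells and in 3.61% and 13.3% (95% interval 5.05 to 26.8%) of the removed cells. Igfbp4 was seen more often in the removed cells, in 37.3% and 26.7% against 4.62% and 4.95%. Klf2 was higher there in replicate 1 only (34.9% and 22.2% against 23.4% and 25.1%), as was Bach2 (2.41% and 0% against 2.16% and 1.94%), and Satb1 in replicate 2 only (4.82% and 8.89% against 6.47% and 7.54%). S1pr1 and Dapl1 were lower there in both replicates.

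**Figure D3:**
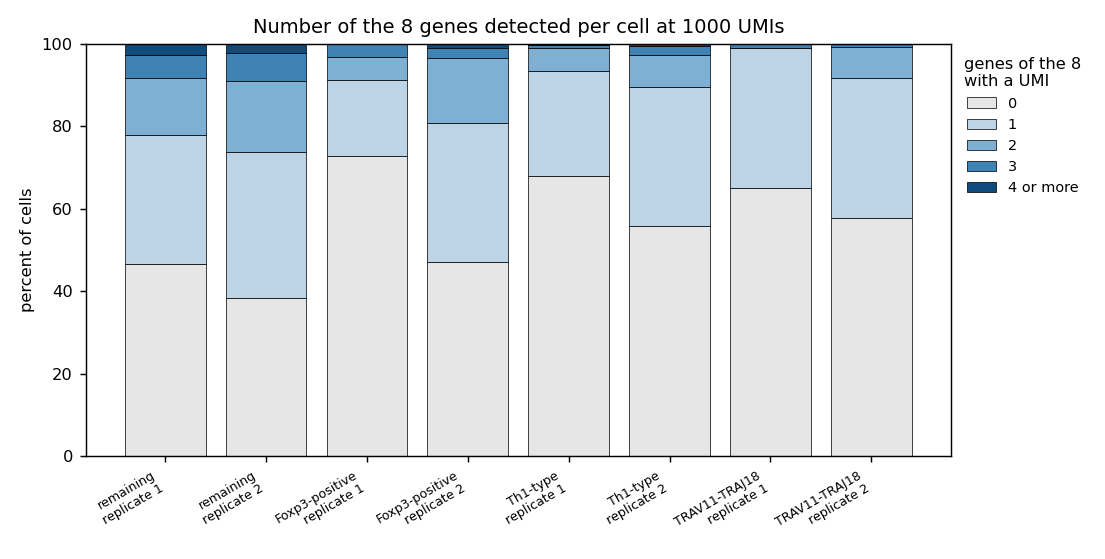
Stacked bars give the percent of cells (0 to 100) in each class and replicate in which 0, 1, 2, 3 or at least 4 of the 8 genes had a UMI at 1000 UMIs per cell. Remaining cells had the smallest share with 0 genes, 46.5% and 38.5%, against 72.8% and 47.1% in Foxp3-positive cells.

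Within remaining cells the genes were seen together more often than the product of their single shares for 17 of the 21 pairs without Bach2 in both replicates, and for 0 pairs less often in both. Observed over product ran from 0.448 to 6.70. Igfbp4 and Satb1 were together in 13 cells of replicate 1 where the product gave 1.94 (ratio 6.70), and in 10 cells of replicate 2 where it gave 5.20 (ratio 1.92). Lef1 and Igfbp4 had ratios of 3.61 and 2.59. Klf2 and S1pr1 had 1.52 and 1.45, below the 1.78 and 1.60 of Klf2 and Dapl1. The pair S1pr1 and Satb1 went apart between replicates, at 1.69 and 0.448. Pairs of other genes with like detection were not counted, so the 17 of 21 cannot be read as particular to these genes. Counts per pair are small, and these ratios are a description of cells within 2 samples.

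Across the 8 class sums, 1454 or 1455 genes with a mean of at least 100 CPM were compared with each of the 7 tested members after centring log2 CPM within the replicate. The genes most like Klf2 were Itga4 (Pearson's r = 0.986), Il7r (0.984) and Tspan13 (0.978). Dapl1 was most like Il7r (0.971), Foxp1 (0.967) and Tra2a (0.961), and S1pr1 most like Akap13 (0.959), Rpl7a (0.959) and Smc4 (0.953). Ribosomal protein genes led for Tcf7 (Rplp2, 0.991) and for both Lef1 and Igfbp4 (Rpl10a, 0.945 and 0.944). Satb1 was most like Rbl2 (0.932). The 8 sums come from 2 libraries, so these are descriptions of the class pattern and no test is given.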

How the data were processed

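The RNA tables of the meninges are unnormalized UMI counts, which the authors deposited after Cell Ranger 4.0.0 (replicate 1) and 6.0.0 (replicate 2), per the file headers; the submitters' processing notes name mm10, Seurat and Cell Ranger 6.1.0. The deposited hashtag counts assigned barcodes: at least 10 counts and 5 times the next hashtag. The label of replicate 1 names hashtag 7 but gives the sequence that replicate 2's table lists for hashtag 10 and that replicate 1's own table does not list; the name was used, and every replicate 1 value rests on it. Cells needed 500 genes, under 10% mitochondrial UMIs and a T-cell gene or chain; cells with 3 UMIs of other lineages or 2 or more beta chains (likely doublets) were removed, and no doublet caller was run. Cells were thinned to 1000 UMIs, summed by class and replicate, and tested with edgeR 4.0.16 (R 4.3.3). Settings were TMM, filterByExpr, quasi-likelihood and Benjamini-Hochberg over all genes, with adjusted p under 0.05. The fit without the block was checked on simulated sums of Foxp3-positive against remaining cells over 6561 genes (76% of 4-fold and 25% of 2-fold changes recovered, 6 false calls). Simulated sums had the same spread for every gene and no replicate effect. Real sums share a replicate effect, so these rates do not carry over to them. Class sums of a replicate share animals and library, and deviations of same-numbered sums correlated (r 0.23 to 0.64 over 6561 genes), so the replicate pairs them; the fit without the block was fixed as the first test and the block as the second. Alternatives were DESeq2 1.42.0, other filters, depths, hashtag margins and class rules. The 8 genes and the lists were chosen with earlier results of these data known. From the companion, retention and immediate early lists, up to 4 genes per list and comparison with remaining cells were named, by the smallest p among those past the threshold with the same direction in both replicates, in either fit; the likeness rule took the 3 highest correlations. A listed gene, and a split of the cells that used it, are not reported here.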

Additional observations from a re-analysis of the deposited data

Results flagged for a closer look

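The hippocampal libraries, of CD45- Thy1- cells from Foxp3-DTR- (DTRneg) and Foxp3-DTR+ (DTRpos) mice given diphtheria toxin, 2 mice pooled in each, entered no comparison above. All 8 genes were present there above the level that 3 UMIs give (0.0572 CPM in DTRneg and 0.0853 CPM in DTRpos cells), although T cells were gated out. S1pr1 was highest, at 135 CPM in DTRneg and 173 CPM in DTRpos cells, followed by Klf2 at 112 and 77.4 CPM. Bach2 stood at 15.5 and 18.8 CPM, Satb1 at 13.1 and 11.8 CPM and Lef1 at 12.3 and 11.4 CPM. Igfbp4 (4.27 and 4.27 CPM), Tcf7 (2.50 and 1.91 CPM) and Dapl1 (0.172 and 0.313 CPM, 9 and 11 UMIs) were lowest. With 1 library per genotype, no test between them is possible. No group of the meningeal comparisons had the 4 samples that a search for outlying samples needs.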

How the results depend on the processing

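Each comparison was counted again over all genes under the other settings. The replicate block on its own was one of them; its combination with each of the others, and another random draw of the thinning, were added after seeing the data. Without the block 1, 4, 41, 14 and 3 genes were called in Foxp3-positive, Th1-type and TRAV11-TRAJ18 against remaining cells and in Foxp3-positive and TRAV11-TRAJ18 against Th1-type cells; with the replicate block 123, 259, 371, 208 and 90 were called, and with no filter on low counts 26, 42, 148, 90 and 54. The clone splits gave 0 within Th1-type and 0 in all cells outside TRAV11-TRAJ18 (1 and 59 with the replicate block, 8 and 24 unfiltered, 1 and 1 with DESeq2). DESeq2 called 6 in Foxp3-positive against remaining, 26 in Foxp3-positive against Th1-type and 17 in TRAV11-TRAJ18 against Th1-type cells. Foxp3-positive against remaining cells gave 3 with multiple beta chains kept, 0 at hashtag margin 2 and 2 with classes set on thinned counts, which gave 24 against Th1-type cells. Th1-type against remaining cells gave 2 with those chains kept, 0 with the class set from 1 UMI, 7 at 500 UMIs and 2 unthinned. TRAV11-TRAJ18 cells gave 24 against remaining at 500 UMIs and, against Th1-type cells, 0 with those chains kept, 1 at margin 2, 0 at margin 20, 9 with another draw, 5 with Th1-type from 1 UMI, 1 at 500 UMIs and 0 unthinned. The clone split of Th1-type cells gave 1 with another draw and 1 unthinned.

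Of the values of single members, 181 passed the threshold anew and 17 lost it. With a replicate left out, 30 changed sign or moved by more than the replicates' spread. Another 815 kept direction and side of the threshold or, with a replicate left out, kept direction and stayed within that spread. The last 16 changed sign in settings with both replicates. The sign changed for S1pr1 in Foxp3-positive against remaining cells without cells meeting both rules (0.16; 0.0448 with the replicate block), and, against Th1-type cells, for Lef1 and Igfbp4 with Foxp3-positive set from 2 UMIs (-0.0044 with the replicate block; -4.76 and -4.80) and for Dapl1 unthinned (-0.29 and -0.17). Igfbp4 in TRAV11-TRAJ18 against Th1-type cells turned with Th1-type from 1 UMI (-0.93; -1.08 with the replicate block) and unthinned (-0.20 and -0.22). Tcf7 between clones turned with another draw (0.24 and 0.23 within Th1-type cells, 0.0575 and 0.0634 outside TRAV11-TRAJ18) and unthinned within Th1-type cells (0.0224). None of these was called, and the cause was not tested. Leaving out a replicate leaves no residual degrees of freedom, so only the value of the other replicate is had. In replicate 2 alone the sign turned for Tcf7 between clones (0.18 within Th1-type cells, 0.28 outside TRAV11-TRAJ18). It also turned there for S1pr1 between Th1-type clones (0.0043) and Dapl1 between clones outside TRAV11-TRAJ18 (0.27). In replicate 1 alone it turned for Satb1 between clones outside TRAV11-TRAJ18 (0.07) and Dapl1 in Foxp3-positive against Th1-type cells (-0.09). Depth limits Bach2, and Dapl1 and Igfbp4 outside remaining cells.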
